A study of Arabidopsis thaliana with 33 samples.

Results

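The heterochromatic knob on the short arm of Arabidopsis thaliana chromosome 4, known as hk4S, was examined in lists of open chromatin peaks from stressed and unstressed seedlings. A peak is a stretch of genome with more reads than its surroundings, and its summit is the base where the reads pile highest. Peaks were taken as knob peaks when the summit lay between 1.6 and 2.3 Mb of chromosome 4 in the build TAIR10, and they were compared with peaks of the adjoining arm, at 0.2 to 1.6 Mb and at 2.3 to 2.8 Mb, called the flank below. By this rule 4076 of the 698102 peaks in the 10 lists were knob peaks, and 11382 were flank peaks.

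All plants were Columbia-0 (Col-0) seedlings, 10 day old, either untreated or exposed to 1 of 4 stresses. Heated seedlings spent 6 h at 38 °C, chilled ones 24 h at 4 °C, salt-treated ones 6 h with 250 mM NaCl, and drought meant 1 h of drying in air. Open chromatin was taken by DNase-seq, in which DNase I cuts accessible DNA in nuclei, and by FAIRE-seq, in which formaldehyde-fixed chromatin releases DNA poor in bound protein. Each combination of treatment and assay had 3 libraries, or 2 for cold, and 1 deposited peak list that pools them, so no value below has a replicate error and intervals cover counting error only.

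Heterochromatin is the tightly packed, DNA-methylated fraction of the genome, rich in transposons and their remains and poor in active genes. In Arabidopsis most of it surrounds the centromeres, and the knob of chromosome 4 is a known island of it inside an otherwise gene-rich arm. Col-0 carries this knob through an inversion of the arm, and it holds transposon remains, a long tandem repeat array and a small number of active genes.

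The gene table gave the knob this make-up. It placed there 54 protein-coding genes, 120 pseudogenes, the class under which the table lists transposon-derived genes, and 23 other RNA loci. That was 77.1 protein-coding genes per Mb against 246 per Mb in the flank, and 171 pseudogenes per Mb against 26.8. Protein-coding genes spanned 14.7% of the bases of the knob and 59.4% of those of the flank, while pseudogenes spanned 37.9% and 5.23%.

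Despite this the knob was not empty of peaks. In untreated seedlings the DNase-seq list held 458 knob peaks, or 654 per Mb against 611 per Mb in the flank, and the FAIRE-seq list held 418, or 597 against 616 per Mb. The share of bases under peaks was 18.3% in the knob and 18.4% in the flank by DNase-seq, and 14.6% and 15.04% by FAIRE-seq. In both untreated lists, therefore, the knob and its surroundings had nearly the same peak density and coverage.

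Under stress the knob-to-flank density ratios of the 2 assays were furthest apart after heat. The DNase-seq lists held 209 knob peaks after heat, 357 after cold, 396 after salt and 282 after drought, and the knob density per Mb was 299, 510, 566 and 403 against 475, 547, 462 and 363 in the flank. The heat list was the lowest in the knob and had a density ratio of knob to flank of 0.628, while the other 4 DNase-seq lists had ratios between 0.932 and 1.23. The FAIRE-seq lists held 490 knob peaks after heat, 373 after cold, 545 after salt and 548 after drought, and their densities per Mb were 700, 533, 779 and 783 against 746, 540, 810 and 821. Each FAIRE-seq list was thus within 10% of the flank, with ratios from 0.939 to 0.987. FAIRE-seq minus DNase-seq, the log2 density ratio averaged −0.01 ± 0.37 (SD, n = 5 treatments) and ran from −0.35 to 0.58. A two-sided exact sign-flip permutation test did not separate that mean from 0, and 5 pairs cannot give a p under 0.0625.

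Over all 10 lists the log2 ratio of knob to flank density averaged −0.05 ± 0.25 (SD, n = 10 lists), which a two-sided exact sign-flip permutation test did not separate from 0 (p = 0.637). The covered share behaved alike, with a mean log2 ratio of −0.12 ± 0.31 (SD, n = 10 lists, exact permutation p = 0.232). The largest single departure was the heat DNase-seq list, where peaks covered 8.08% of the knob and 15.2% of the flank. Counted per protein-coding gene instead of per Mb, the knob held more summits than the flank, by a mean log2 of 1.62. Dividing by the number of genes shifts the log2 ratio of every list by the same amount, so no test of that value is given. Against the centromere-side flank alone, the density ratio turned to 0.23 (log2).

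**Figure D1:**
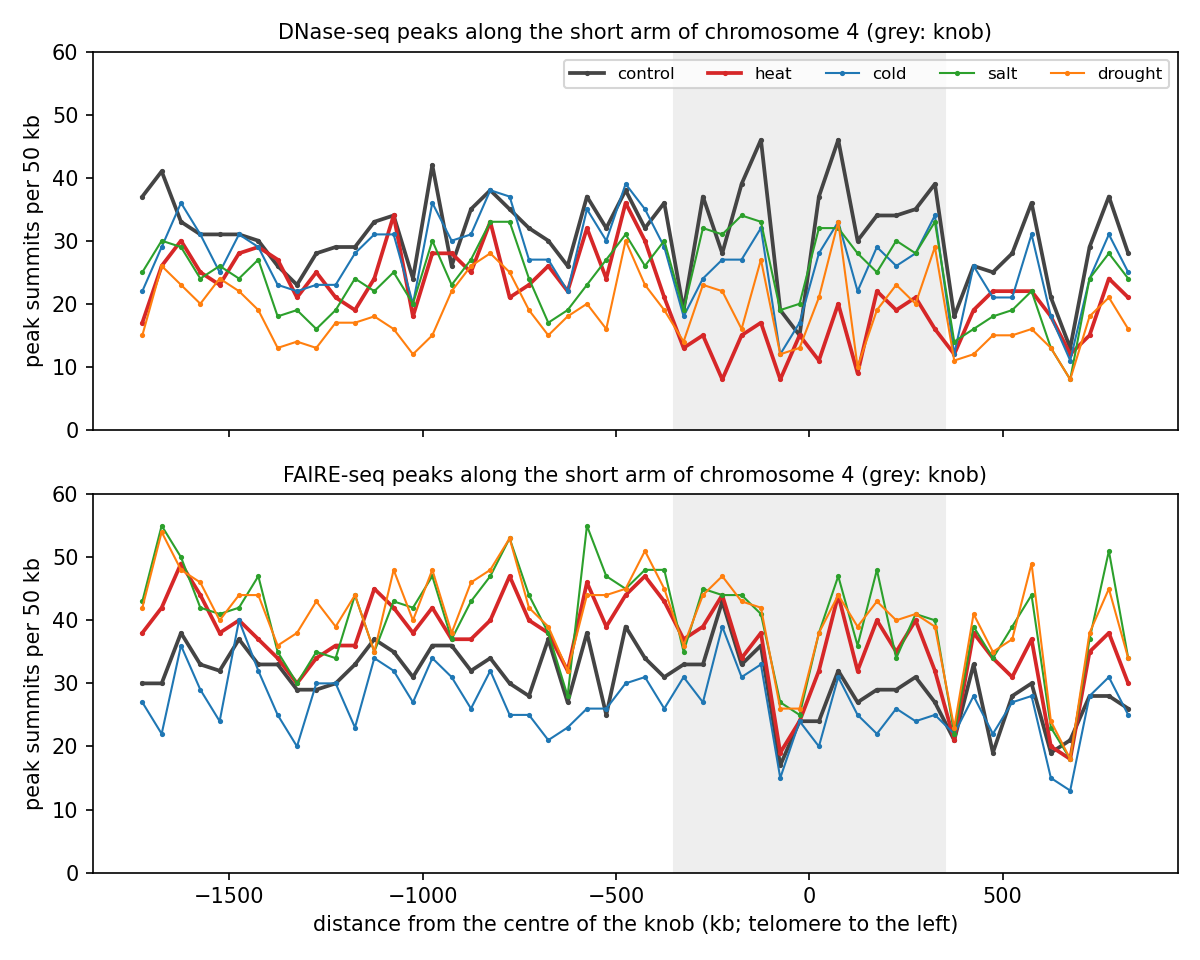
Peak summits per 50 kb along the arm, by distance from the centre of the knob (kb, grey band: knob), with DNase-seq above and FAIRE-seq below and 1 line per treatment. In the knob the heat DNase-seq line lies between 8 and 22 summits per window against 15 to 46 in the untreated list, while the heat FAIRE-seq line lies between 19 and 44.

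Within the knob the peaks were unevenly spread. The untreated DNase-seq list had between 15 and 46 summits per 50 kb, with the fewest at chr4:1900001-1950000 and the most at chr4:1800001-1850000. In 4 of the 5 FAIRE-seq lists the fewest summits fell in the window chr4:1850001-1900000, and in all but salt the most fell at chr4:1700001-1750000. In that same window, chr4:1700001-1750000, the heat DNase-seq list had 8 summits, its lowest count in the knob, and the heat FAIRE-seq list had 44, its highest.

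Knob peaks were weaker than flank peaks. Strength is given as the percentile of a peak's fold enrichment, the authors' ratio of reads to local background, among all peaks of its own list, because these values rank peaks within 1 list only. In the untreated DNase-seq list the median knob peak stood at percentile 38.0 and the median flank peak at 50.6. The gap was 46.0 against 53.2 after heat, 46.2 against 47.3 after cold, 35.8 against 51.8 after salt and 33.4 against 55.3 after drought. By FAIRE-seq the medians were closer, at 47.0 against 49.1 untreated, 48.9 against 49.3 after heat, 48.9 against 49.1 after cold, 40.8 against 47.7 after salt and 46.0 against 48.3 after drought.

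The knob median was the lower one in 10 of 10 lists, by a mean of −7.05 ± 7.49 percentile points (SD, n = 10 lists). A two-sided exact sign-flip permutation test gave p = 0.00195, the smallest that 10 lists allow, and an adjusted p of 0.0254 over 13 tests. The 10 lists are 2 assays of the same 5 treatments, and the test took them as 10 separate units. Within either assay alone the same permutation test on 5 lists gave an adjusted p of 0.135. The call over 10 lists did not hold with −log10 q in place of fold enrichment (−4.96, exact permutation test, adjusted p = 0.203). Without any 1 of the 5 treatments the difference stayed between −8.65 and −5.80, and 8 lists cannot give an adjusted p below 0.102 in this permutation test. Against the telomere-side flank alone the knob median was not the lower one throughout. It was the higher one after cold by DNase-seq (46.2 against 45.1). By FAIRE-seq it was higher after heat (48.9 against 47.2), cold (48.9 against 47.4) and drought (46.0 against 45.5), and in the remaining lists it was lower. The share of knob peaks in the top 10% of their list was below that of flank peaks in each of the 10 lists, by differing amounts. By DNase-seq it was 4.37% against 8.88% untreated, 2.48% against 12.5% after drought and 9.57% against 12.4% after heat. By FAIRE-seq it ran from 7.16% to 8.85% in the knob and from 8.97% to 10.7% in the flank. Median knob peaks were 205 to 249 bp wide by DNase-seq and 182 to 224 bp by FAIRE-seq, and the log2 width ratio to the flank averaged 0.01 ± 0.07 (SD, n = 10 lists, exact permutation p = 0.52).

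After heat the DNase-seq list held fewer peaks in both regions, and the shortfall was larger in the knob. The knob went from 458 to 209 peaks, which left 45.6%, while the flank went from 1160 to 903, which left 77.8%. Relative to the flank the knob number was 0.586 times that of untreated seedlings (95% interval 0.487 to 0.706), or −0.77 on the log2 scale (−1.04 to −0.50). FAIRE-seq of heated seedlings gave no such drop: the knob went from 418 to 490 peaks (117%) and the flank from 1170 to 1417 (121%), a ratio of 0.968 (0.832 to 1.13).

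A control peak that shared no base with any peak of the stress list of its assay was called lost, and a stress peak that shared none with the control list was called gained. After heat 275 of the 458 DNase-seq knob peaks were lost, 60.04% (95% Wilson interval 55.5 to 64.4), against 39.5% in the genome and 41.0% in the flank. The difference to the flank was 19.0 percentage points (13.6 to 24.2). Only 24 of the 209 knob peaks after heat were gained, 11.5% against 24.1% in the genome and 22.9% in the flank. The pericentromere of the same chromosome, taken as 2.8 to 5 Mb, was like the knob in its losses, at 60.7%, and lower in its gains, at 5.78%. Losses in knob and pericentromere differed by −0.656 percentage points (−5.96 to 4.54).

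**Figure D2:**
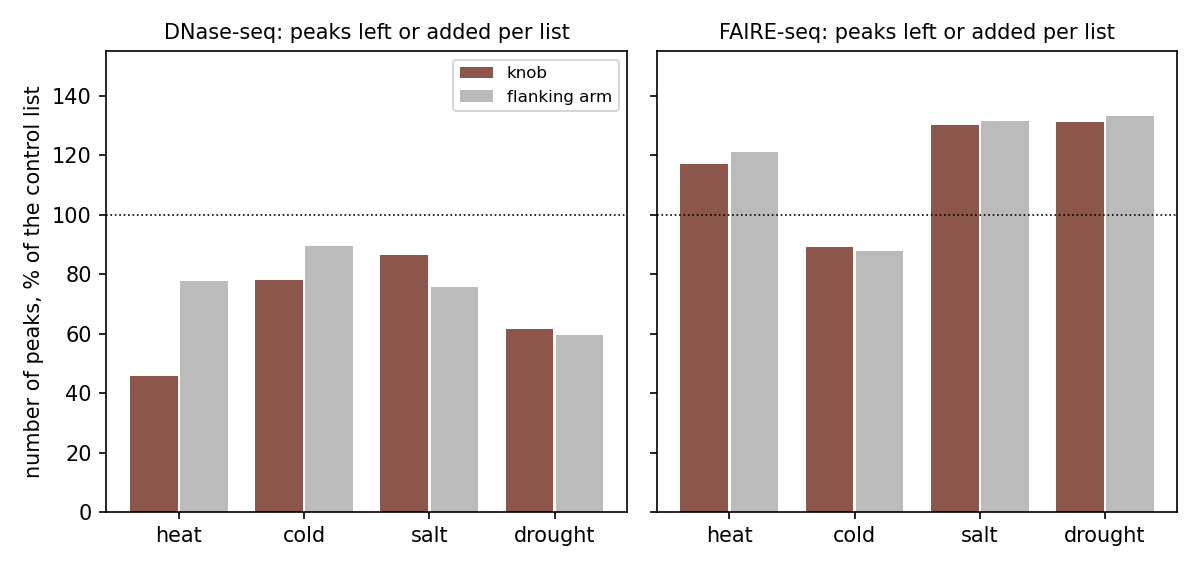
Number of peaks in each stress list as a percentage of the untreated list of the same assay (dotted line: 100%), for knob and flank, with 1 pooled list per bar. The heat DNase-seq bar of the knob stands at 45.6% beside 77.8% for the flank, and by FAIRE-seq the bars of knob and flank lie within 4 percentage points of each other.

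By the ratio of DNase-seq peak numbers in the lists as deposited, the other stresses left the knob closer to the flank. This did not hold for losses with the flank weighted by peak strength, as described below. Those differences were −17.8 percentage points after salt and −13.3 after drought, against 11.1 after heat. After cold, with 2 libraries in the list, the knob kept 77.9% of its peak number and the flank 89.7%, a ratio of 0.869 (0.740 to 1.02). Cold losses were 32.8% in the knob, 24.9% in the flank and 25.0% in the genome, and gains were 7.003%, 11.5% and 12.0%. The loss difference of 7.84 percentage points (2.97 to 12.9) came to 0.966 when the flank was weighted to the strengths of the knob peaks.

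Salt went the other way. The knob kept 86.5% of its DNase-seq peak number and the flank 75.6%, a ratio of 1.14 (0.974 to 1.34). Of the control knob peaks 62 were lost, 13.5% against 22.4% in the genome and 24.7% in the flank, a difference of −11.2 percentage points (−15.02 to −7.01). Gains were few everywhere, but more frequent in the knob: 22 of 396 peaks, 5.56%, against 3.10% in the genome and 1.596% in the flank. With peaks matched by summits within 150 bp instead of by shared bases, that gain difference of 3.96 percentage points came to 0.384. With lists of equal length it came to 20.3, and the relative number moved from 0.19 to 0.49 on the log2 scale.

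Drought left 61.6% of the DNase-seq peak number in the knob and 59.5% in the flank, a ratio of 1.04 (0.868 to 1.23). Its losses were 42.4% in the knob, 44.7% in the flank and 40.9% in the genome, and 3 of 282 knob peaks were gained, 1.06% against 2.12% in the genome. With lists of equal length the relative number moved from 0.05 to 0.33 on the log2 scale, and the gain difference to the flank from −0.24 to 13.0 percentage points. All 4 stress lists of an assay were set against the same control list, so their values stand side by side and are not independent of each other.

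FAIRE-seq gave the knob lower gained shares than the flank under every stress, although for cold the interval of the difference (−5.94 to 2.48 percentage points) spanned 0. Gained shares in the knob were 21.6% after heat, 14.2% after cold, 32.5% after salt and 29.9% after drought, against 27.6%, 16.2%, 38.1% and 36.3% in the flank. The genome-wide shares were 24.8%, 15.7%, 34.9% and 33.9%. Lost shares in the knob were 7.42%, 26.8%, 7.66% and 4.78%, against 8.38%, 28.8%, 12.6% and 9.49% in the flank and 8.05%, 29.0%, 12.8% and 10.3% in the genome. The knob lost fewer of its FAIRE-seq peaks than the flank after salt, by −4.91 percentage points (−7.88 to −1.46), and after drought, by −4.70 (−7.17 to −1.77), while after heat (−3.71 to 2.301) and cold (−6.83 to 3.10) the intervals of the difference spanned 0. With lists of equal length the loss differences were −0.314 after salt and 1.56 after drought, so neither of these 2 differences held there.

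**Figure D3:**
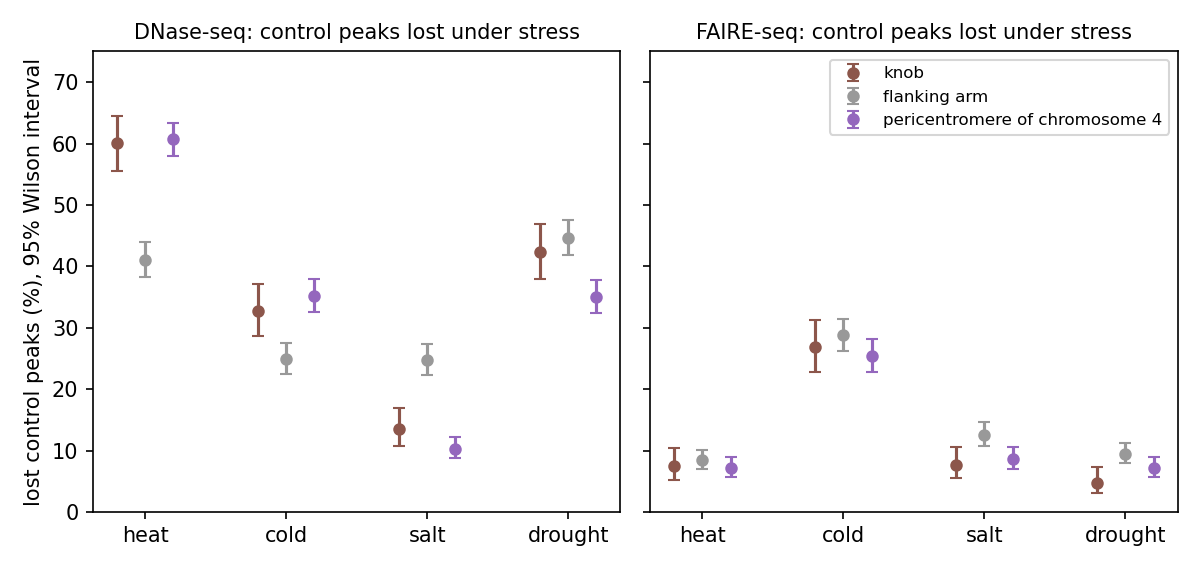
Share of the control peaks of each assay lost under each stress (%, with 95% Wilson intervals) in the knob, the flank and the pericentromere of chromosome 4. In DNase-seq after heat the knob (60.04%) and pericentromere (60.7%) lie above the flank (41.0%), after salt they lie below it (13.5% and 10.3% against 24.7%), and the FAIRE-seq points of a stress stay within 5 percentage points of each other.

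Weak peaks were lost more often than strong ones, and knob peaks were weaker. Control DNase-seq peaks were therefore split into 4 equal classes by their fold enrichment in the whole list. From the weakest to the strongest class heat removed 73.8%, 65.1%, 53.0% and 22.2% of the knob peaks, against 69.3%, 52.7%, 35.3% and 8.50% of the flank peaks. The knob lost more in 4 of 4 classes, and weighting the flank to the strengths of the knob left a difference of 11.1 percentage points of the 19.0. The strongest class of the knob held 54 peaks, of which 12 were lost to heat, 1 to cold, 1 to salt and 1 to drought. For salt and drought the same weighting gave −17.8 and −13.3 percentage points. Under each of these 2 stresses the knob lost the smaller share in 3 of the 4 classes, while in the strongest it lost 1.85% against 0.680% in the flank.

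Pseudogenes held the largest share of the knob summits, between 47.4% and 54.3% of each list. In the untreated DNase-seq list 234 of 458 summits (51.1%) fell within a pseudogene, 97 (21.2%) within a protein-coding gene and 118 (25.8%) outside any locus, whereas 80.9% of the flank summits fell within protein-coding genes. Per Mb of the class, knob pseudogenes held 884 summits, protein-coding genes 945 and the space outside loci 369. Summits in knob pseudogenes were weaker, with a median percentile of 31.8 against 54.4 in its protein-coding genes, and those in flank pseudogenes stood at 28.7. In untreated FAIRE-seq the 2 classes of the knob were closer, at 44.9 for 199 pseudogene summits and 48.8 for 78 summits in protein-coding genes.

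DNase-seq losses by class were as follows, and gains after salt and heat are given after them. After heat the knob lost 84 of 118 summits outside loci (71.2%), 142 of 234 in pseudogenes (60.7%) and 46 of 97 in protein-coding genes (47.4%, 95% interval 37.8 to 57.3), against 41.3%, 56.6% and 40.3% in the flank. The widest gap between knob and flank was outside loci. After salt the knob lost 18 of 234 summits in pseudogenes (7.69%, 4.92 to 11.8) but 25 of 97 in protein-coding genes (25.8%, 18.1 to 35.3), and the flank lost 9.21% and 22.7%. Within each of these 2 salt classes knob and flank were close, and outside loci they were not, at 12.7% against 46.3%. Gains after salt were 6.60% in knob pseudogenes against 8.70% in those of the flank, and 1.35% against 1.09% in protein-coding genes. Outside loci they were 7 of 105 summits against 0 of 64. Gains after heat were 6.80% against 7.69% in pseudogenes, 15.3% against 18.7% in protein-coding genes and 14.6% against 46.2% outside loci. For both stresses the widest of these gaps in gains was outside loci.

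Peaks of the 2 assays were then matched within each treatment. In untreated seedlings 58.5% of the DNase-seq knob peaks shared bases with a FAIRE-seq peak, as did 59.7% in the flank, and 65.3% of the FAIRE-seq knob peaks shared bases with a DNase-seq peak, as did 62.6% in the flank. After heat 36.7% of the FAIRE-seq knob peaks had a DNase-seq partner against 56.4% in the flank, and in the other direction 88.5% of the remaining DNase-seq knob peaks had a FAIRE-seq partner against 83.2% in the flank. The share of FAIRE-seq knob peaks with a DNase-seq partner was 62.5% after cold, 62.9% after salt and 40.5% after drought, against 69.8%, 54.0% and 38.6% in the flank. It was thus low after heat and after drought, and after drought it was low in the flank too.

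Peaks of the 10 lists that shared or touched a base were joined into sites, which gave 633 sites in the knob. Of these, 101 sites (16.0%) were present in all 10 lists and 64 (10.1%) in 1 list, against 18.6% and 14.4% of 1770 flank sites. Both assays saw 379 of the knob sites, DNase-seq alone saw 75 and FAIRE-seq alone 179. A total of 49 sites were in all 5 FAIRE-seq lists and in no DNase-seq list, and 3 sites were in all 5 DNase-seq lists and in no FAIRE-seq list. Sites were not counted by assay in the flank, so these counts are not read as a trait of the knob. FAIRE-seq lists held more peaks than DNase-seq lists in both regions, 2374 against 1702 in the knob and 6712 against 4670 in the flank.

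Of the 101 sites present throughout, the strongest lay within the protein-coding gene AT4G03965, at chr4:1889467-1890288. It was the strongest knob peak of all 5 FAIRE-seq lists, with fold enrichments of 5.17 untreated, 5.19 after heat, 6.72 after cold, 5.53 after salt and 4.70 after drought. Its DNase-seq values were 5.90, 4.21, 4.74, 5.89 and 13.0 in the same order, and its percentile was at least 96.8 in each of the 10 lists. This peak was between 689 and 771 bp wide, several times the median knob peak.

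The next was at chr4:1874910-1875306 within AT4G03940, the strongest knob peak of the heat, cold and drought DNase-seq lists, with fold enrichments of 4.85, 5.32 and 13.1 against 5.12 untreated and 4.21 after salt. The strongest untreated DNase-seq peak of the knob was within AT4G03600, in the site chr4:1603848-1604493, at 5.93. The remaining sites of the 10 most constant lay within AT4G03820, AT4G03635, PUX4, a UBX-domain protein of a family that binds the CDC48 ATPase, and FIB, a fibrillin of plastid lipid bodies, within the pseudogene AT4G03650, and in a gene-free stretch described below. Open sites in all 10 lists thus occurred both within protein-coding genes and outside them.

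The sites gained in the most stresses by DNase-seq were gained in 2 or 3 of the 4. The strongest was at chr4:2119207-2119588, nearest to RbcX1, a chaperone for Rubisco assembly. It was absent from the untreated, salt and drought DNase-seq lists and had a fold enrichment of 3.06 after heat (percentile 87.2) and 3.00 after cold (77.9). All 5 FAIRE-seq lists held it, at 5.01 untreated, 4.67 after heat, 5.18 after cold, 3.87 after salt and 2.77 after drought. The site was thus already listed by FAIRE-seq without stress. A site within MEE51, a gene named for its embryo-arrest mutant, was gained after heat, cold and drought (2.27, 2.24 and 3.62) and was in no FAIRE-seq list.

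Some sites were gained or lost by both assays at once. Heat gained 1 of the 633 sites and lost 5, cold gained 1 and lost 6, salt gained 3 and lost 1, and drought gained and lost 0. Of the 1770 flank sites heat gained 18 and lost 10, cold gained 8 and lost 23, salt gained 6 and lost 6, and drought gained 0 and lost 4. The knob sites of this kind are named although they fall outside the rule for named sites and were chosen after their values were seen. Both sites gained by heat and by cold lay within AT4G04340, known as OSCA1, a calcium channel opened by hyperosmolality. The heat site, chr4:2122586-2122866, was in the heat lists alone, with fold enrichments of 2.13 by DNase-seq and 2.17 by FAIRE-seq. The cold site, chr4:2125669-2125956, had 2.49 and 3.01 in the cold lists and was also in the salt and drought FAIRE-seq lists at 1.899 and 1.81. The percentiles of these peaks ran from 11.9 to 79.2.

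The 3 sites gained under salt lay within the pseudogenes AT4G04105, AT4G04380 and AT4G04420. Among the 5 lost to heat, 1 was within the protein-coding gene AT4G03645, 2 were within the pseudogenes AT4G03865 and AT4G03970, 1 was beside the pseudogene AT4G03870 and 1 was in the gene-free stretch. The cold losses were within AT4G03645, AT4G03930 and the pseudogenes AT4G03970, AT4G04280, AT4G04310 and AT4G04380.

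Summits were also counted within the 54 protein-coding genes of the knob. A DNase-seq summit was present in 46 genes untreated, 36 after heat, 44 after cold, 40 after salt and 33 after drought, and a FAIRE-seq summit in 43, 46, 38, 46 and 48. A total of 24 genes had a summit in all 10 lists and 4 had none in any list, namely AT4G04078, AT4G04415, AT4G04555 and AT4G04580. After heat 11 of the 46 genes had no DNase-seq summit left, 23.9% (95% Wilson interval 13.9 to 37.9), against 57 of 409 genes in the flank, 13.9% (10.9 to 17.6). Those intervals overlap, and the difference was not tested.

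The 11 genes were AT4G03590, AT4G03645, AT4G03728, AT4G03740, AT4G03945, AT4G03950, AT4G04090, AT4G04110, AT4G04260, AT4G04423 and ISU3, a scaffold protein for iron-sulfur clusters. ISU3 had 1 untreated DNase-seq summit of fold enrichment 2.53, none after heat or drought, and 2 FAIRE-seq summits in every list. FAIRE-seq after heat left 1 of 43 genes without a summit, AT4G03645 (2.33%, against 3.12% in the flank). Drought left 13 of 46 genes without a DNase-seq summit (28.3%, 95% interval 17.3 to 42.5) and salt 6 (13.04%, 6.12 to 25.7), against 18.8% and 9.05% in the flank, within those intervals. RbcX1 was among them for both, while it kept a DNase-seq summit after heat and cold (2.50 in each) and a FAIRE-seq summit in all 5 lists.

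**Figure D4:**
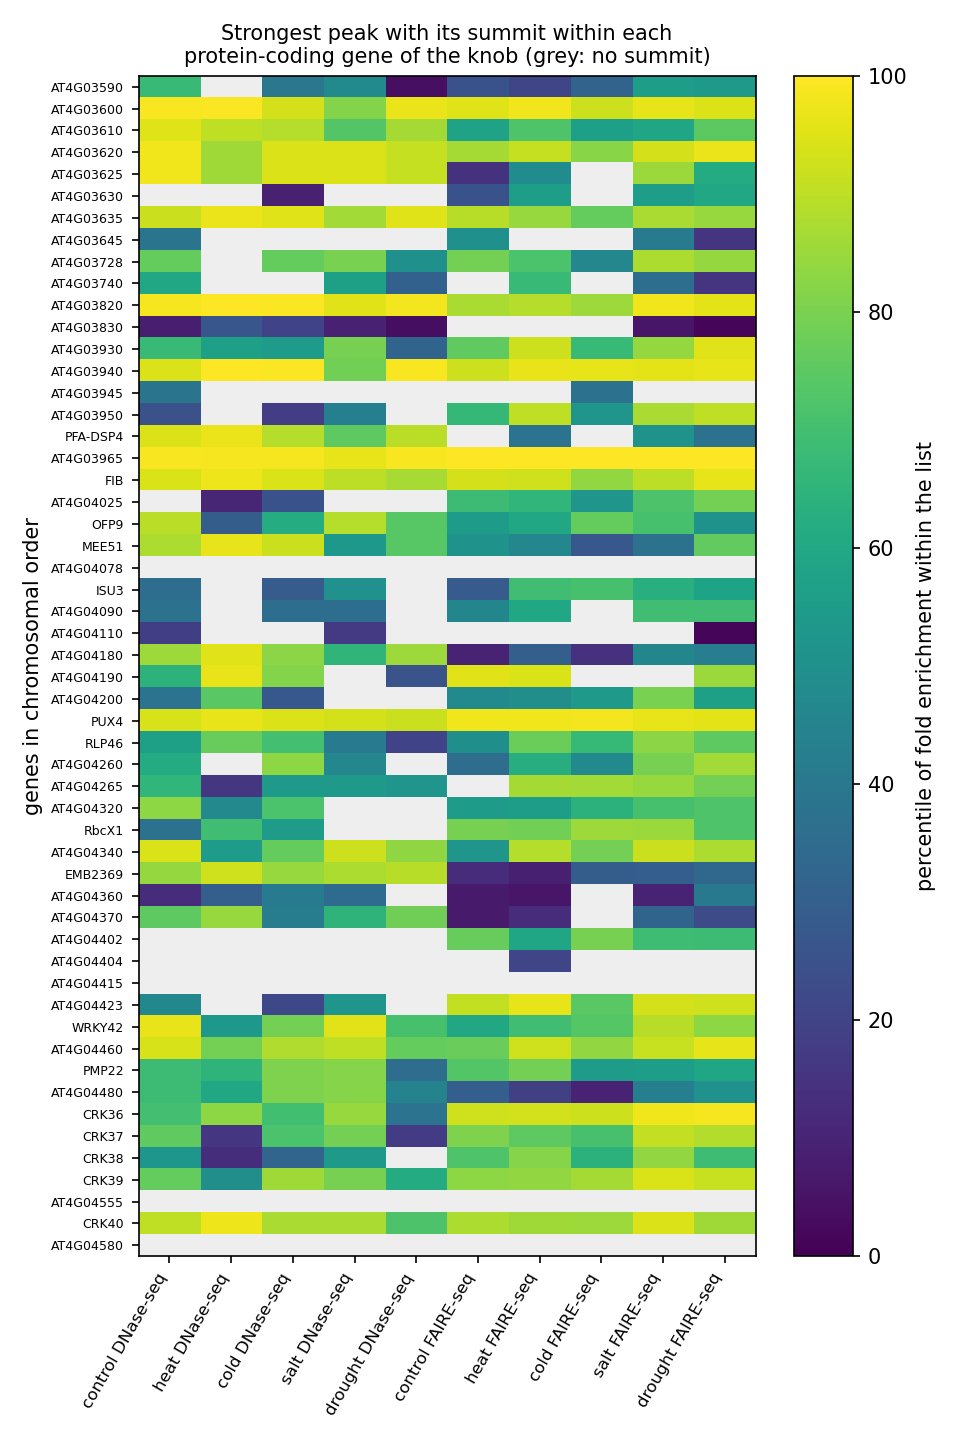
Percentile of fold enrichment of the strongest peak with its summit within each of the 54 protein-coding genes of the knob, in chromosomal order, for the 10 lists (grey: no summit). Heat and drought DNase-seq have more grey cells (18 and 21 genes) than the untreated DNase-seq list (8 genes), and the bright bands across all lists are AT4G03600, AT4G03820, AT4G03940, AT4G03965, PUX4 and FIB.

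OSCA1 held many peaks of its own. Its DNase-seq summits numbered 5 untreated, 4 after heat, 7 after cold, 4 after salt and 4 after drought, and its FAIRE-seq summits 3, 6, 5, 8 and 8. The strongest DNase-seq peak had a fold enrichment of 5.09 untreated (percentile 94.5), 2.25 after heat (55.1), 2.96 after cold (76.5), 5.25 after salt (92.2) and 7.44 after drought (83.4). By FAIRE-seq the strongest stood at 2.19, 3.02, 3.01, 3.64 and 2.92, with percentiles of 52.1, 88.7, 79.2, 92.1 and 87.7. In FAIRE-seq the untreated list was thus the lowest of the 5, and in DNase-seq the heat list was. A site of the same gene, chr4:2126367-2126669, was gained by FAIRE-seq in all 4 stresses, at 2.07 to 2.40, and was present in all 5 DNase-seq lists.

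The other genes of known function within the knob were FIB, PUX4, RbcX1, EMB2369, WRKY42, a transcription factor of phosphate homeostasis, and PMP22, a peroxisomal membrane protein. With OSCA1 they were 7 of the 8 listed, since TPC1, a vacuolar cation channel, lay just outside. Their DNase-seq summits numbered 22 untreated, 19 after heat, 19 after cold, 15 after salt and 14 after drought, and their FAIRE-seq summits 17, 23, 18, 29 and 28. Over the whole knob the DNase-seq peak numbers after heat, cold, salt and drought were 45.6%, 77.9%, 86.5% and 61.6% of the untreated one. By FAIRE-seq they were 117%, 89.2%, 130% and 131%. The counts in these genes were not adjusted for the length of the lists or tested against the whole knob. WRKY42 went from a strongest DNase-seq peak at percentile 96.6 untreated to 53.2 after heat, and stood at 79.2 after cold, 95.5 after salt and 70.9 after drought. Its FAIRE-seq percentiles were 60.1, 69.3, 73.7, 89.1 and 83.0. As in OSCA1, the untreated list was the lowest in FAIRE-seq and the heat list the lowest in DNase-seq. The other 5 genes had no DNase-seq drop of that size. From untreated to heat FIB went from percentile 94.2 to 97.5, PUX4 from 93.8 to 96.6, EMB2369 from 84.0 to 92.9, RbcX1 from 37.2 to 69.4 and PMP22 from 68.7 to 65.1.

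A cluster of 5 cysteine-rich receptor-like kinases, CRK36 to CRK40, plasma-membrane proteins of a family linked to defence and oxidative signals, lay near the centromere-side end. Together they held 13 DNase-seq summits untreated, 6 after heat, 11 after cold, 11 after salt and 7 after drought, and 10, 10, 7, 12 and 12 FAIRE-seq summits. Over the whole knob the DNase-seq peak number under these stresses was 45.6%, 77.9%, 86.5% and 61.6% of the untreated one. The counts in the kinases were not tested against the whole knob and are not read as a trait of them. Each of the 5 kinases kept at least 1 summit in every list, except CRK38 in drought DNase-seq. CRK40 went from 4 to 1 DNase-seq summits with heat, and the one that stayed stood at percentile 97.3 against 90.3 for the strongest untreated one. From untreated to heat the strongest DNase-seq peak of CRK36 went from percentile 70.0 to 83.2, and that of CRK39 from 76.2 to 49.3. The strongest peaks of CRK37 and CRK38 after heat were at percentiles 15.8 and 13.2, against 75.6 and 52.7 untreated. Their FAIRE-seq peaks after heat were at 75.2 and 81.9, so the low heat values were in DNase-seq alone.

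A stretch with no annotated locus, 46.6 kb between the pseudogenes AT4G03795 and AT4G03800, held 25 summits in untreated DNase-seq, 8 after heat, 23 after cold, 27 after salt and 18 after drought. The distances between neighbours were measured. Of the 24 distances between neighbours in the untreated list, 14 (58.3%) were between 1700 and 2200 bp, against 9.74% in the rest of the knob and 7.69% in the flank. The shares were 45.5% after cold, 65.4% after salt and 82.4% after drought. Read with the tandem repeat array known in the knob as background, the stretch is described here because of this spacing, which was noticed in the data.

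The evenness was measured as a vector strength, which is 1 when all summits share 1 phase of a period and near 0 when they are spread over it. A scan of periods from 1500 to 2500 bp gave a best period of 1942 bp in the untreated list, 1942 bp after cold, 1943 bp after salt and 1942 bp after drought, with vector strengths of 0.783, 0.663, 0.862 and 0.955. At 1942 bp, 40 windows of the same length in the flank had a median of 0.134 and a highest value of 0.345 in the untreated list, and after drought a median of 0.188 and a highest of 0.542. That period was chosen on the stretch. Scanned for their own best period, the flank windows had medians of 0.288 untreated, 0.316 after cold, 0.328 after salt and 0.371 after drought. Their highest values were 0.582, 0.799, 0.703 and 0.777, so after cold at least 1 flank window exceeded the stretch. The heat list, with 8 summits, stood at 0.361 at 1942 bp and had its best period at 1847 bp, with a strength of 0.782. In it 3 of 7 distances (42.9%) were between 1700 and 2200 bp. AT4G03795, the pseudogene at the edge of the stretch, is 1947 bp long in the gene table.

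By FAIRE-seq the stretch held 39 summits untreated and 40, 37, 43 and 45 after heat, cold, salt and drought, with vector strengths from 0.03 to 0.19 at 1942 bp. A vector strength is also low when several summits recur in each repeat, so these values do not show that the period is absent. Counted from the end of AT4G03795, the phases of the FAIRE-seq summits within 1942 bp ran from 113 to 836 bp and from 1213 to 1693 bp. That distribution was not compared with flank windows and was not tested. The FAIRE-seq summits were strong peaks for the knob, with median percentiles of 73.4 untreated and 68.1 to 72.3 under stress. Sites of the stretch included chr4:1725799-1726068, the strongest knob peak of salt DNase-seq at 6.45 and present in all 10 lists, and chr4:1734358-1734609, in all 5 FAIRE-seq lists at 3.22 to 4.55 and in no DNase-seq list. Heat lost 18 of the 25 DNase-seq summits (72.0%, 95% interval 52.4 to 85.7) and 5 of the 39 FAIRE-seq summits (12.8%). Without this stretch the rest of the knob still lost 59.4% of its DNase-seq peaks to heat.

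**Figure D5:**
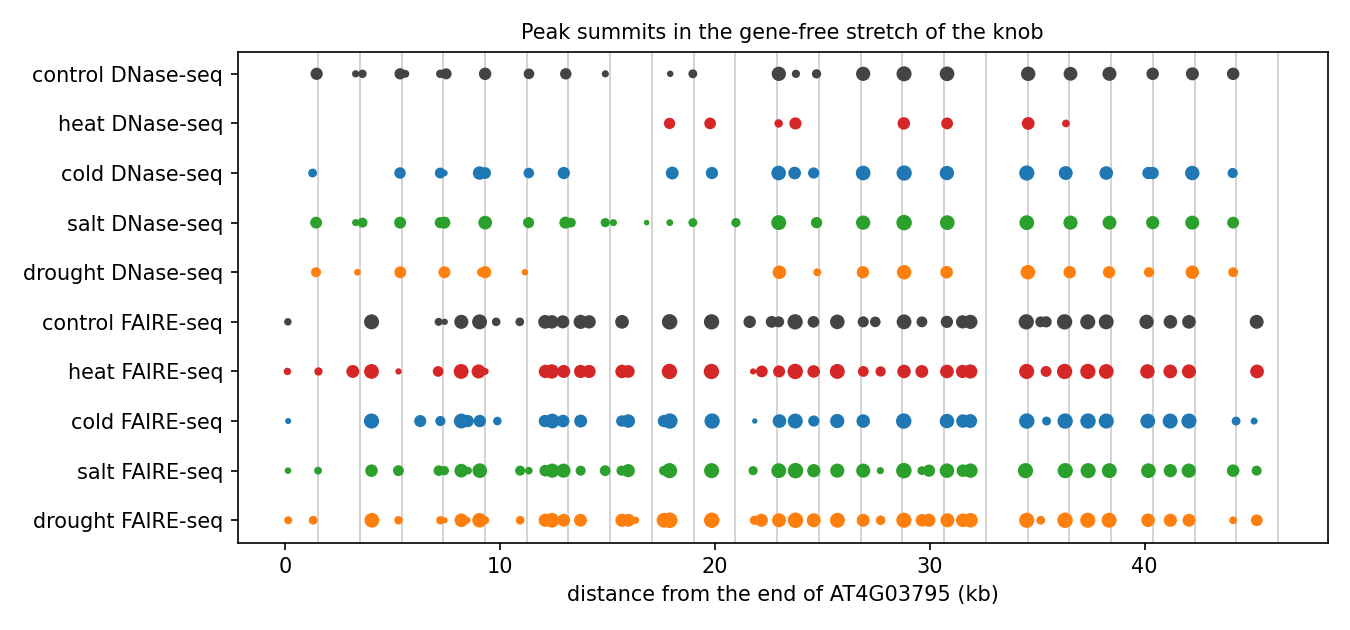
Peak summits along the gene-free stretch by distance from the end of AT4G03795 (kb), 1 line of points per list, larger points for higher percentiles, and grey lines every 1942 bp. DNase-seq summits of untreated, cold, salt and drought seedlings fall mostly near the grey lines, 8 remain after heat, and FAIRE-seq summits fall on and between the lines.

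Single-end reads of 50 bp from near-identical repeats cannot be assigned to 1 copy with certainty. The handling of reads with several matches, a step not given in the sources used here, and its part in the values for the stretch and for the pseudogenes were not tested. Depth per library is unknown, and the lists differed in length, from 45737 to 92034 peaks. Ratios to the flank of the same list do not fully take this out. The DNase-seq relative numbers after cold, salt and drought moved with lists of equal length, as given below.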

How the data were processed

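Of 33 samples, 28 were chromatin libraries, used here through 10 peak lists; the other 5 were of RNA and were not used. Groups came from the sample titles, where D was read as DNase-seq and the letter F as FAIRE-seq. Per the submitters' processing notes, FastQC, Bowtie2, SAMtools, TopHat2 and MACS2 were used with the build TAIR10, in unstated versions. Settings for trimming, duplicate reads, reads with several matches, the background library and the pooling of libraries: not given in the sources used here. For each peak the deposited lists hold a fold enrichment over local background (a ratio) and −log10 values of the p-value and q-value, with every −log10 q over 2. A deposited score was left aside, and the summit offset, of another kind, was read from its deposited column. Without read totals in the lists the depth per library is unknown, and intervals cover counting error only.

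Peaks were assigned to regions by summit, and percentiles of fold enrichment were taken within each list. Shares have 95% Wilson intervals, differences of shares Newcombe intervals, and ratios of peak numbers intervals from Poisson counting error. Knob and flank were compared over lists by two-sided exact sign-flip permutation tests with Benjamini-Hochberg adjustment over 13 tests; 5 lists of 1 assay cannot give a p under 0.0625. Lists of the same treatment come from separate libraries, and nothing says whether these came from separate plants, so p-values measure the spread between lists. Loci were taken from RefSeq (assembly TAIR10.1), and none of its coordinates are printed. As a check of their placement, 80.2% of 348 strong untreated DNase-seq summits lay within protein-coding genes, against 71.8% and 73.9% when shifted by 200 bp either way. No genome sequence was used here, so no sequences are shown.

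Named sites are the 10 present in most lists, the strongest knob peak of each list, the 5 per assay gained and the 5 lost in most stresses, and up to 5 per assay seen by that assay alone, with ties broken by mean percentile. CRK36 to CRK40 and 8 genes of known function were listed as well. The members and lists were chosen with earlier results of these data known. Simulated lists were used to check the density ratio and the calls of peaks absent from another list, and simulated summits to check the scan of periods. The permutation test was checked on fixed sets of values only, and the intervals and the adjustment were not checked in this way. Alternatives were a −log10 q of at least 5, lists of equal length, the core of the knob at 1.7 to 2.2 Mb, either side of the flank alone, strength by −log10 q, density per protein-coding gene, an overlap of 50%, summits within 150 bp, and sites joined within 100 bp. Leaving out each treatment, weighting the flank by strength, leaving out the gene-free stretch and the analysis of spacing were added after seeing the data. Python 3.11.15, numpy 2.4.6, pandas 2.3.3, scipy 1.17.1 and matplotlib 3.10.9 were used.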

Additional observations from a re-analysis of the deposited data

Results flagged for a closer look

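The number of knob peaks relative to the flank, set against the untreated list of the same assay, had opposite signs by DNase-seq and FAIRE-seq for 3 of the 4 stresses. On the log2 scale it was −0.20 by DNase-seq and 0.03 by FAIRE-seq after cold, 0.19 and −0.01 after salt, and 0.05 and −0.02 after drought. Each group has 1 list, all 6 intervals span 0, and the differences between the assays were not tested.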

How the results depend on the processing

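Of 334 values recomputed under another setting, 285 were counted as unchanged. The relative number of knob peaks after heat by DNase-seq was among them throughout. Being counted as unchanged did not require a similar size. The DNase-seq log2 width ratio was so counted whichever treatment was left out, at −0.047 to −0.0029. Tests on 5 lists cannot give a p under 0.0625, so they could not cross the threshold of 0.05. Their unchanged side of it is therefore not a sign of stability. No paired analysis was possible because each list pools the libraries of its group and its columns carry no replicate number, and for the same reason single replicates could not be left out.

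The lower strength of knob peaks over all lists kept its direction but not its call at a −log10 q of at least 5 (−7.69 percentile points), with lists of equal length (−6.86), in the core of the knob (−6.40), against the telomere-side flank (−5.63) and by −log10 q (−4.96). Leaving out each treatment gave −8.65 to −5.80 for it, log2 density ratios of −0.13 to 0.11 for DNase-seq and −0.093 to 0.031 over all lists, log2 covered ratios of −0.28 to 0.020 for DNase-seq, and −0.16 to 0.075 for FAIRE-seq minus DNase-seq density. The density and cover ratios turned positive without the heat lists. The FAIRE-seq minus DNase-seq density difference turned to 0.063, 0.083 and 0.00398 and the log2 width ratio over all lists to −0.00195 and −0.00526 under the stricter q, equal length and, for density alone, the telomere-side flank.

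Against the centromere-side flank the log2 ratios turned to 0.26 for density, 0.19 for cover and 0.014 for width by DNase-seq, to 0.20 for both density and cover by FAIRE-seq, and to 0.23 and 0.20 over all lists, and the excess of DNase-seq losses to heat moved to 13.3 percentage points. Per protein-coding gene the log2 density ratio was 1.63 by DNase-seq, 1.62 by FAIRE-seq and 1.62 over all lists.

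With lists of equal length the log2 relative number by DNase-seq moved to 0.033 after cold, 0.49 after salt and 0.33 after drought. In percentage points of knob minus flank, DNase-seq gains moved to 2.88 after cold, 20.3 after salt and 13.0 after drought, DNase-seq losses to 2.36 after cold, and FAIRE-seq losses to 3.53 after heat, −0.314 after salt and 1.56 after drought. The stricter q moved FAIRE-seq gains after cold to −5.96. Summits within 150 bp moved DNase-seq gains after salt to 0.384 and FAIRE-seq losses after drought to −8.28. Weighting the flank by strength moved DNase-seq losses to 11.1 after heat, 0.966 after cold, −17.8 after salt and −13.3 after drought. The cause was not tested for any of these.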

Other observations

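The pericentromere of chromosome 4, at 2.8 to 5 Mb, had weaker DNase-seq peaks than the knob, with a median percentile of 26.9 against 38.0 in untreated seedlings and 21.0 against 35.8 after salt. Its peaks gained under salt by DNase-seq made up 13.1% of the list there, against 5.56% in the knob and 3.10% in the genome, a difference of −7.53 percentage points between knob and pericentromere (−10.3 to −4.28). In the knob 14 of the 22 peaks gained under salt had their summit within a pseudogene, 7 lay outside any locus and 1 within a protein-coding gene. Of all 396 knob summits of that list 53.5% lay within pseudogenes, 26.5% outside any locus and 18.7% within protein-coding genes. The gained share of pseudogene summits was 6.60% in the knob and 8.70% in the flank, so these counts are not read as a trait of the knob.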
